A study of Homo sapiens with 6 samples.

Results

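The RGS proteins measured here were RGS1, RGS2, RGS3, RGS10, RGS14, RGS16, RGS18 and RGS19. All probe sets whose gene symbol in the platform annotation named one of these 8 genes were taken, which gave 18 of the 54613 non-control probe sets of the array, and 8 of 19775 genes. None of the 18 listed a second gene. The probe sets were compared in MOLM-14, an established acute myeloid leukaemia (AML) cell line with an MLL-AF9 rearrangement. Cells received 25 nM cortistatin A (CA), a natural product that blocks CDK8 and CDK19, the kinases of the Mediator complex, or its solvent dimethyl sulfoxide (DMSO), each for 3 h. Each group had 3 samples, each on its own Affymetrix U133 Plus 2.0 array. The samples were wells plated in triplicate from a single line, so p-values measure the spread between these wells, which may be technical, and no second line or later time was compared.

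RGS proteins end signals from G protein coupled receptors. An active receptor loads the alpha subunit of a G protein with GTP, and the RGS domain speeds the hydrolysis of that GTP, which returns the subunit to its inactive form. In blood cells, RGS proteins are known for limiting how long and how strongly leukocytes respond to chemoattractants. RGS1, RGS2, RGS3, RGS16 and RGS18 belong to the R4 subfamily, most of whose members are small proteins with little beyond the RGS domain. RGS10 and RGS14 belong to the R12 subfamily, and RGS19 to the RZ subfamily.

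RGS16 rose after CA. Its brightest probe set, 209324_s_at, was 1.53-fold higher (95% confidence interval 1.39 to 1.68), and of the 18 it alone was called higher, meaning an adjusted p under 0.05 in limma with the Benjamini-Hochberg method over all probe sets. None was called lower. Over all probe sets, 0.212% were called higher and 0.00732% lower. At an unadjusted limma p under 0.05, 2 of the 18 were higher, both of RGS16, and 0 were lower, against 4.91% and 3.71% of all probe sets. The other 7 genes, with 15 probe sets, had log2 changes between -0.14 and 0.19 and adjusted p between 0.593 and 0.996.

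The genes of the family lie in part side by side on chromosome 1. The start regions of 3 are printed here because RGS16 was called while its R4 relatives RGS1 and RGS2 were not. The RGS1 probe sets averaged 5.30, 3.85 and 2.22 in DMSO, near or below the array medians of 5.03 to 5.08. The missing call of RGS1 thus says little about its response. In RefSeq's gene order, RGS18, RGS21, RGS1, RGS13 and RGS2 follow each other with no other coding gene between them, and RGS16 lies apart, next to RGS8. The stretches are the 250 bases before the annotated start in assembly GRCh38.p14, 5′ to 3′ on the gene's strand, from RefSeq. That of RGS16 is chr1:182604390-182604639 on the minus strand, that of RGS1 is chr1:192575523-192575772 on the plus strand, and that of RGS2 is chr1:192808789-192809038 on the plus strand. Capitals mark matches, on either strand, to the motifs searched.
RGS16: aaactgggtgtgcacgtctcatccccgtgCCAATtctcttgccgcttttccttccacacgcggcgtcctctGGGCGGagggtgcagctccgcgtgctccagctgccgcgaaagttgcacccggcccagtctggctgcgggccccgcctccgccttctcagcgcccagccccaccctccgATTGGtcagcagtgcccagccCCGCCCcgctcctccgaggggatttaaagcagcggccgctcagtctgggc
RGS1: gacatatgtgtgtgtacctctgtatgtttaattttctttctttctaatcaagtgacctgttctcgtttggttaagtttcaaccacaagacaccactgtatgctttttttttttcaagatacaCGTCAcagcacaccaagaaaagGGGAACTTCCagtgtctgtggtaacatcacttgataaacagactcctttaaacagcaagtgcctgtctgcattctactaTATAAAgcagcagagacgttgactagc
RGS2: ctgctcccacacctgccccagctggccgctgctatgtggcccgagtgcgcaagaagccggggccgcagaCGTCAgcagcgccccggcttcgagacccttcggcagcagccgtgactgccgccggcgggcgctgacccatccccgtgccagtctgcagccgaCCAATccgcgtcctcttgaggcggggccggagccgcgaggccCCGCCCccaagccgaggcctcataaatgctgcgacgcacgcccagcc

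The motifs searched on both strands were the GC box (GGGCGG), the CCAAT box (CCAAT), the TATA box (TATAAA), the core of the cyclic AMP response element (TGACG), the AP-1 site (TGANTCA), a STAT site (TTCNNNGAA) and the NF-kB site. No motif is contained in another, matches of different motifs may overlap, and each motif was counted separately. RGS16 held 2 GC boxes and 2 CCAAT boxes, and the CCAAT box nearest the start began 71 bases before it. RGS2 held 1 GC box, 1 CCAAT box and 1 cyclic AMP response core, and RGS1 held 1 TATA box 27 bases before its start, 1 such core and 1 NF-kB site. Of 35116 promoter windows of the same length, 42.6% held a GC box, 32.0% a CCAAT box, 10.7% a TATA box, 21.2% a cyclic AMP response core, 6.57% an AP-1 site, 6.57% a STAT site and 9.96% an NF-kB site. G and C made up 68.4% of the RGS16 window, 72.8% of that of RGS2 and 39.2% of that of RGS1, against a median of 58.0% over all windows. These matches are descriptions of the letters and were not tested for binding.

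RGS16 encodes an RGS protein that acts on alpha subunits of the Gi and Gq classes. At 209324_s_at the log2 values were 8.34, 8.24 and 8.24 on the DMSO arrays of replicates 1, 2 and 3, and 8.89, 8.91 and 8.85 on the CA arrays. The lowest CA array lay above the highest DMSO array, and the spread within each group was small against the gap (means of 8.27 ± 0.06 for DMSO and 8.89 ± 0.03 for CA, SD, n = 3). The log2 change was 0.61 with a standard error of 0.06 (adjusted p = 0.0206, limma over all probe sets). Among the 116 probe sets called higher it ranked 55th by the size of the change, and their median was 1.52-fold. At the second probe set, 209325_s_at, the log2 values were 6.88, 6.92 and 6.88 in DMSO and 7.28, 7.31 and 7.19 in CA. The groups did not overlap there either, and the fold was 1.29 (1.17 to 1.42), but the adjusted p was 0.0865 and the probe set was not called. The third, 242212_at, gave 3.20, 3.06 and 3.13 in DMSO and 3.06, 3.00 and 3.10 in CA, well below the array medians of 5.03 to 5.08. Its groups overlapped, with a log2 change of -0.08 (adjusted p = 0.761), so the 3 probe sets did not give the same change. The ending _s_at marks probe sets whose probes match several transcripts, and which transcripts of RGS16 each probe set measures was not analysed here.

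**Figure D1:**
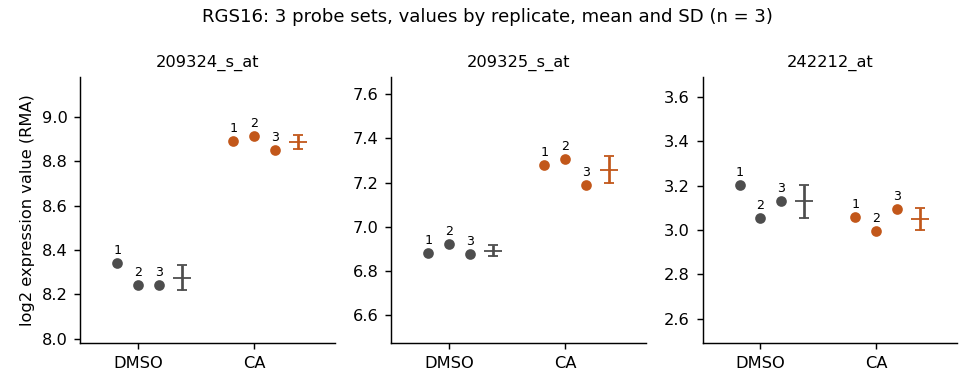
Log2 expression values of the 3 RGS16 probe sets on each array (points, numbered by replicate) with the mean and SD of each group (n = 3), each panel spanning 1.2 log2 units. The CA points lie above all DMSO points at 209324_s_at (8.85 to 8.91 against 8.24 to 8.34) and at 209325_s_at, and overlap them at 242212_at.

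The size of the RGS16 change was steadier than its call. Leaving out any 1 array gave log2 changes between 0.59 and 0.64 at 209324_s_at, but no such fit called it. The adjusted p was 0.154, 0.144 and 0.152 without DMSO replicates 1, 2 and 3, and 0.137, 0.139 and 0.0653 without CA replicates 1, 2 and 3. CA replicate 3 was the array that stood apart from the rest, at 33.8 on the first principal component (31.6% of the variance) against -12.8 to 6.44 for the others. Without it the log2 change was 0.63. The call for 209325_s_at depended on the fit in the other direction: it passed in a robust fit with an intensity trend (adjusted p = 0.0125), with array weights (0.0495) and without dim probe sets (0.0190).

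**Figure D2:**
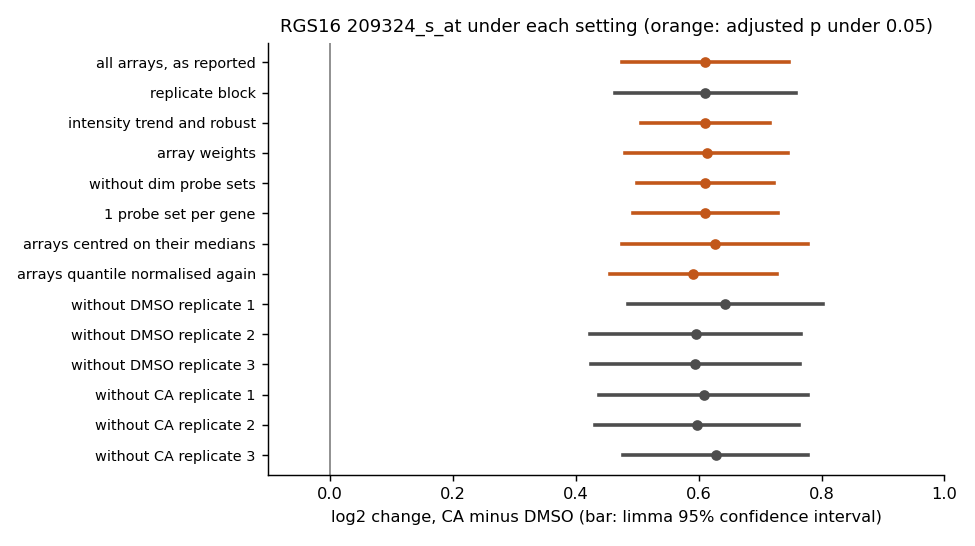
Log2 change of RGS16 at 209324_s_at, CA minus DMSO, with limma's 95% confidence interval under each setting; orange marks an adjusted p under 0.05. The change stays between 0.59 and 0.64 in all settings drawn, and the 6 fits that leave out 1 array and the fit blocked on replicate number are drawn in grey. The block, the trend and robust fit, the filter on dim probe sets and 1 probe set per gene cannot move the change, only its interval and adjusted p.

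RGS1, which restrains chemokine receptor signals in lymphocytes and monocytes, was measured by 3 probe sets. The brightest, 216834_at, had log2 values of 5.31, 5.41 and 5.18 in DMSO and 5.40, 5.49 and 5.32 in CA. The groups overlapped, and the fold was 1.08 (0.945 to 1.23, adjusted p = 0.748). The other probe sets were dim: 202988_s_at averaged 3.85 in DMSO and 3.85 in CA, and 202989_at 2.22 and 2.23. Below the array medians a value may hold little but background, so these probe sets bound no change in RGS1.

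RGS2, which acts with preference on Gq, had 1 probe set. Its log2 values were 7.62, 7.65 and 7.70 in DMSO and 7.55, 7.71 and 7.72 in CA, and the groups overlapped fully. The log2 change was 0.0020, a value whose sign turned when the arrays were quantile normalised again (-0.019), and the 95% confidence interval of the fold was 0.898 to 1.12 (adjusted p = 0.996). A rise of the size seen for RGS16 thus lay outside the interval for RGS2.

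RGS3, which acts on Gi and Gq and also exists in long forms, was measured by 3 probe sets. The brightest, 203823_at, read 5.56, 5.67 and 5.65 in DMSO and 5.76, 5.65 and 5.75 in CA (fold 1.07, 0.962 to 1.18, adjusted p = 0.728). The dim 232223_at had the smallest unadjusted p among probe sets of the 7 uncalled genes (0.0560), with a log2 change of 0.16 (-0.0054 to 0.33) and an adjusted p of 0.593. The remaining one, 220300_at, had a log2 change of 0.07 (adjusted p = 0.873). In all 3 the groups overlapped.

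RGS18, found mainly in megakaryocytes, platelets and other myeloid cells, had 1 probe set. Its log2 values were 7.45, 7.42 and 7.30 in DMSO and 7.43, 7.38 and 7.20 in CA. In each group replicate 3 was the lowest, and the groups overlapped (log2 change -0.06, -0.25 to 0.14, adjusted p = 0.874). RGS18, RGS1 and RGS2 thus had no called change, and neither did RGS13, which lies between the latter pair. RGS13 was dim and had a log2 change of -0.18 (adjusted p = 0.580).

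RGS10, a small protein that acts on Gi and is known from microglia and platelets, gave, at 204319_s_at, the smallest standard error of the 18 probe sets (0.05). At 204319_s_at the log2 values were 10.98, 10.99 and 10.97 in DMSO and 10.97, 10.97 and 10.96 in CA. The groups overlapped, and the fold was 0.990 (0.912 to 1.08, adjusted p = 0.955); the log2 change of -0.014 became 0.0011 when each array was centred on its median. The other probe sets had wider intervals. The log2 change was 0.04 (-0.11 to 0.19) at 204316_at and 0.19 (-0.068 to 0.45, adjusted p = 0.678) at 214000_s_at.

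RGS14 carries a second motif that binds inactive Gi alpha subunits, besides its RGS domain. Its brightest probe set, 38290_at, read 7.41, 7.54 and 7.44 in DMSO and 7.42, 7.41 and 7.29 in CA. The groups overlapped (fold 0.941, 0.846 to 1.05, adjusted p = 0.748). At 204280_at the CA arrays scattered more than the DMSO arrays, with 6.08, 5.70 and 6.28 against 6.09, 5.97 and 6.05. The log2 change there was -0.017 (-0.35 to 0.31), and at the dim 211021_s_at it was 0.06 (-0.24 to 0.35).

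RGS19, also called GAIP, acts on Gi class subunits and had 1 probe set. Its log2 values were 10.08, 10.17 and 10.12 in DMSO and 10.01, 10.06 and 9.88 in CA. All CA arrays lay below all DMSO arrays, by a narrow margin, and it was the 1 member probe set with that pattern; over all probe sets 6.55% showed it, and 8.96% showed the opposite one, which 2 member probe sets had, both of RGS16. The fold was 0.906 (0.810 to 1.01, adjusted p = 0.618), so the difference was not called. The lowest value was that of CA replicate 3, and without that array the log2 change was -0.09. Without CA replicate 2 it was -0.18 (-0.36 to -0.0014, adjusted p = 0.630 in limma). The interval also lay below 0 in a robust fit with an intensity trend, without dim probe sets and with quantile normalisation again. None of these fits called it, and in the remaining settings that measured it the interval included 0.

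**Figure D3:**
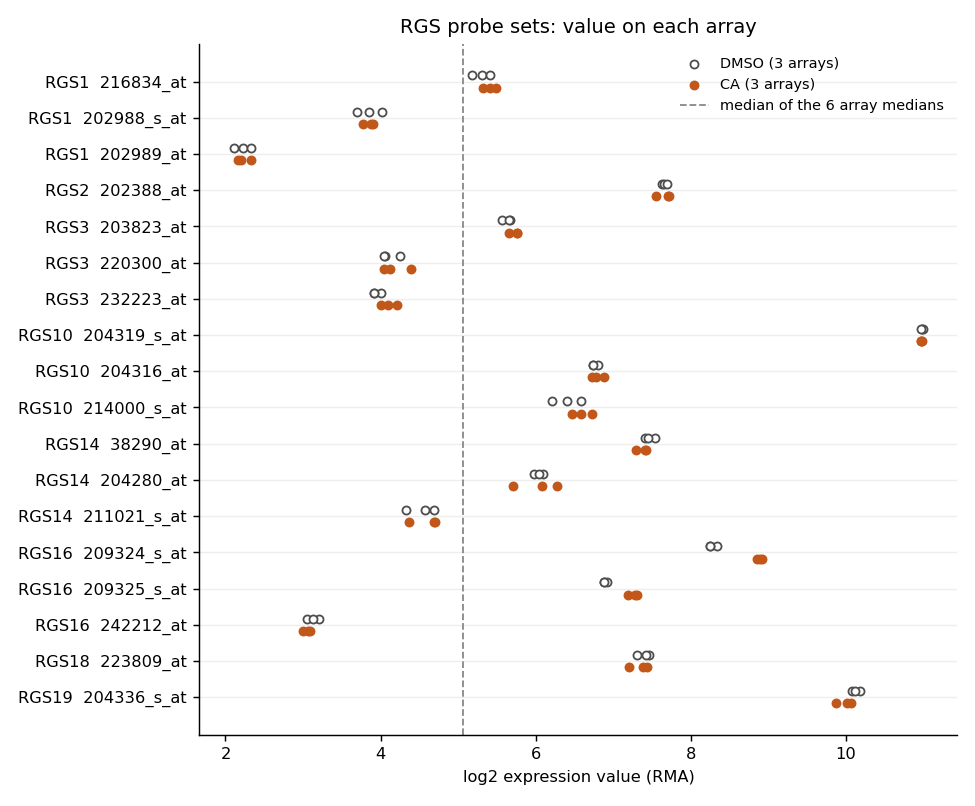
Log2 expression value of each of the 18 RGS probe sets on the 3 DMSO arrays (open) and the 3 CA arrays (orange), with the median of the array medians dashed. Only at the 2 brighter RGS16 probe sets do all CA points lie above the DMSO points, and only at RGS19 do all lie below; positions of different probe sets along the axis do not compare transcript amounts.

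**Figure D4:**
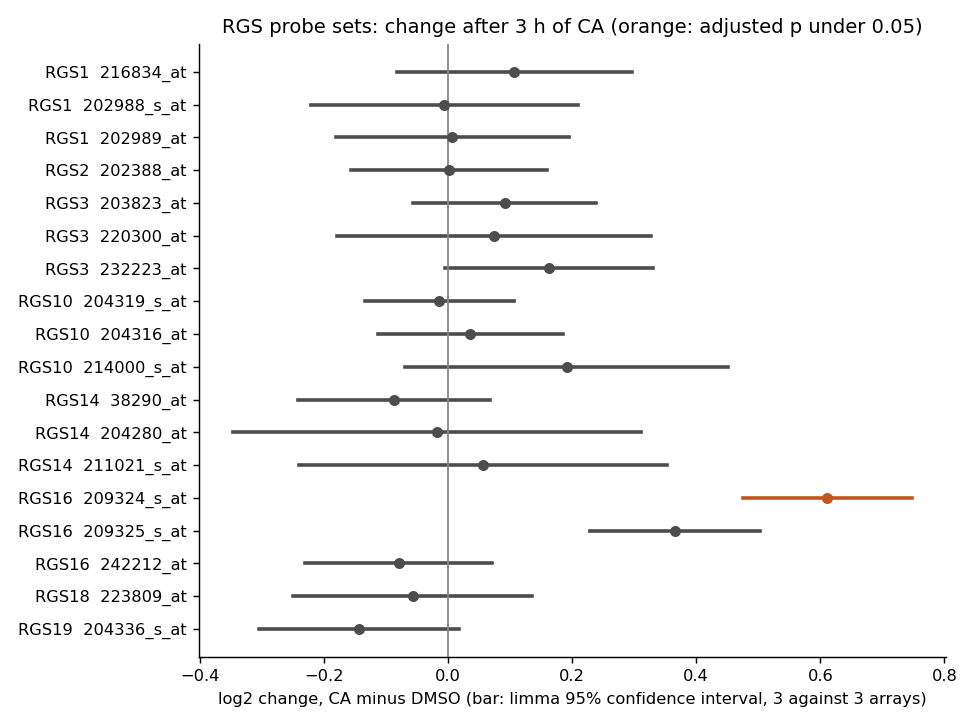
Log2 change, CA minus DMSO, of the 18 RGS probe sets with limma's 95% confidence interval (3 against 3 arrays); orange marks an adjusted p under 0.05. The RGS16 probe set 209324_s_at stands at 0.61 and 209325_s_at at 0.37, and the other 16 intervals include 0.

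Across the 7 uncalled genes, the 95% confidence intervals of the fold at the brightest probe sets lay between 0.810 and 1.23. Those of RGS1 and RGS3 averaged 5.30 and 5.63 in DMSO, close to the array medians of 5.03 to 5.08, so they bound the change less surely. Other probe sets above the median signal reached further, from 0.954 to 1.37 at RGS10 214000_s_at and from 0.787 to 1.24 at RGS14 204280_at. With 3 arrays a group, the standard errors of the 18 probe sets ran from 0.05 to 0.14. The median log2 change over the 18 member probe sets was 0.02, against -0.0011 over all probe sets.

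The rest of the family was described from lists of G protein signalling genes, each gene by its brightest probe set. Over all genes 0.349% were called higher and 0.0101% lower in this fit, and the shares with a p under 0.05 before adjustment were 5.84% and 3.64%. Of 12 other RGS genes measured, 0 were called in limma, and at an unadjusted p under 0.05 RGS6 was higher and RGS13 lower. The RGS6 log2 change was 0.27 (adjusted p = 0.512), from a mean of 4.97 in DMSO. Of 16 genes of other proteins with an RGS homology domain, such as the receptor kinases GRK2, GRK5 and GRK6, 0 were called and 1 was higher without adjustment in limma. That gene was AXIN1, the scaffold of beta-catenin destruction, with a log2 change of 0.19 (adjusted p = 0.458). The median log2 changes of these lists were 0.02 and 0.0040, against 0.0037 over all genes.

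The lists of G protein subunits, other regulators and effectors gave no calls, where 0.349% of all genes were called higher. Of 15 alpha subunit genes 0 were called in limma, and 3 were higher and 0 lower without adjustment. GNAQ, which encodes the alpha subunit of Gq, read 10.53, 10.51 and 10.44 in DMSO and 10.72, 10.68 and 10.66 in CA, so that all CA arrays lay above the DMSO arrays (fold 1.15, 1.04 to 1.26, adjusted p = 0.387). GNAI2 and GNAI3, alpha subunits of Gi, had folds of 0.984 (0.890 to 1.09) and 0.948 (0.852 to 1.05). Of 17 beta and gamma subunit genes 0 were called and 2 were higher without adjustment. GNB5, the beta subunit that pairs with RGS proteins of the R7 subfamily, had a log2 change of 0.20 (adjusted p = 0.389). Of 11 other regulators, 0 were called, with 1 higher and 1 lower without adjustment; the smallest p was that of ARRB1, which encodes beta-arrestin 1, with a fold of 1.25 (1.12 to 1.40, adjusted p = 0.205). Of 24 effectors 0 were called and 1 was higher without adjustment, the adenylyl cyclase gene ADCY9 with a fold of 1.26 (1.16 to 1.38, adjusted p = 0.0870).

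Receptors upstream of RGS proteins were the list with called genes. Of 37 G protein coupled receptors of myeloid cells measured, 6 rose and 0 fell. Without adjustment, limma put 17 higher and 3 lower at a p under 0.05. The list was drawn up with rises of several of its members known, so its count is not independent evidence of direction. The 6 were GPR183, CCR2, S1PR3, P2RY2, GPR18 and CCR1, at 1.50-fold to 2.25-fold. P2RY2, a receptor for extracellular nucleotides that couples to Gq, rose 1.52-fold (1.39 to 1.67, adjusted p = 0.0206), much the size of the RGS16 rise. CCR1, a chemokine receptor of monocytes, rose 1.50-fold at its brightest probe set and 1.48-fold at the other. S1PR3 gave -0.14 on the log2 scale at its other probe set against 1.09 at the brightest, and CCR2 gave 0.25 against 0.97. CXCR4 was not called, with a fold of 1.36 (1.22 to 1.52, adjusted p = 0.0745). The median log2 change of the receptors was 0.14. When 1 array was left out, the number of genes of all lists called higher was 1 without CA replicate 3 and 0 without DMSO replicate 1, 2 or 3 or CA replicate 1 or 2, with 22 to 24 of 132 higher before adjustment in limma. The lists held 139 genes in all, and 7 were not analysed here.

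**Figure D5:**
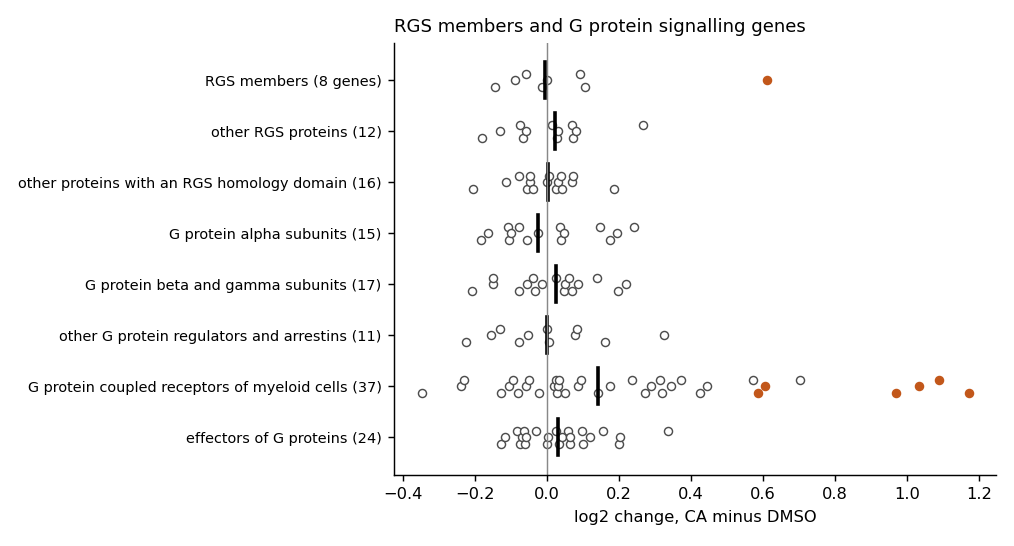
Log2 change, CA minus DMSO, of the brightest probe set of each gene, for the 8 RGS genes and 7 lists of G protein signalling genes (number measured in brackets); filled points have an adjusted p under 0.05 and vertical bars are list medians. Filled points occur in 2 rows, RGS16 among the RGS genes and 6 receptors between 0.59 and 1.17.

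Genes near RGS16 on chromosome 1, 3 on each side, were looked up after the RGS16 value was known. None of the 5 measured was called in limma or had an unadjusted p under 0.05. The gene directly next to RGS16 on the side away from RGS8 was not analysed here. RGS8 had a log2 change of 0.03 (adjusted p = 0.928) and NPL, a sialic acid lyase gene, 0.10 (adjusted p = 0.769). RGSL1 and TEDDM1 were dim, with -0.11 and -0.0097, and DHX9, an RNA helicase gene, had -0.05 (adjusted p = 0.837).

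The genes whose log2 values followed RGS16 most closely over the 6 arrays were RGCC (Pearson r = 0.999), ARID1B (0.999) and APBB1IP (0.998). They were sought among 11511 genes with a probe set above the median signal. Each gene was taken at its such probe set of highest r, which for ARID1B was not its brightest. RGCC read 9.31, 9.21 and 9.20 in DMSO and 9.88, 9.87 and 9.83 in CA, and rose 1.54-fold (adjusted p = 0.0206). The likeness of ARID1B was in pattern and not in size, with a log2 change of 0.12 (adjusted p = 0.584), and APBB1IP had 0.26 (adjusted p = 0.191). With 6 arrays in 2 groups high values of r are common: 859 of the 11511 genes, 7.46%, had r over 0.9 at their probe set of highest r. The share with r as high as that of the genes named was not counted.

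Markers of a myeloid leukaemia line were found in part. PTPRC, FLT3 and LYZ had mean log2 values of 10.6, 10.3 and 12.5 in DMSO, while ANPEP and CD14 lay below the array medians at 4.15 and 3.80. CD33 was not analysed here. Of 45 marker genes measured over 6 lists of cell types, 0 were called in limma, with 2 higher and 2 lower before adjustment. B cells are known for RGS1 and RGS13, and platelets for RGS10 and RGS18. All samples were of a single cell line, so the markers of other cell types describe levels in that line. The mean level of the 6 B cell markers was 5.83 to 5.91 on the DMSO arrays and 5.76 to 5.88 on the CA arrays, although PAX5 averaged 9.54 in DMSO, and that of the 6 megakaryocyte and platelet markers was 4.72 to 4.79 and 4.67 to 4.86. In bulk RNA, fewer cells of the line with a transcript and less of it per cell cannot be told apart.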

How the data were processed

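RNA of 6 MOLM-14 samples was hybridised to Affymetrix U133 Plus 2.0 arrays; labelled RNA came from 100 ng of total RNA by a 3' primed kit, and RNA was isolated with either of 2 reagents without a statement of which served which sample, per the labels' protocols. The authors deposited a table of log2 values for each probe set; per the submitters' processing notes, affy and its RMA method were used, and the sources used here give no versions. RMA quantile normalises arrays, which removes a shift common to every gene and can shrink differences of dim probe sets.

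Of 54675 probe sets, 62 controls were left out. CA was compared with DMSO on all others with limma 3.58.1 in R 4.3.3 (lmFit, eBayes, two-sided, no block or trend; 3.06 prior degrees of freedom), with Benjamini-Hochberg adjustment over all of them, and called at an adjusted p under 0.05. Depth does not apply to arrays; their number limits the precision. Gene lists used the brightest probe set with 1 symbol (highest mean log2 value); 41037 of 41091 such probe sets matched RefSeq by gene number, and 0 symbols changed. The fit was tested on simulated data drawn from limma's own fitted prior with independent errors, which checks the code and not the calls made here. Promoter windows were read with Python 3.11.15 from RefSeq (GRCh38.p14), where all 8 genes matched; the files name no genome build.

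The members and lists were chosen with earlier results of these data known. Named were all members, up to 6 called genes of each list or, with none called, the one of smallest p, and the 3 genes most like the member of smallest p. CXCR4, GNAI2, GNAI3, RGS13, RGS16's neighbours, GRK2, GRK5, GRK6 and the cell type markers stand outside that rule and were named after their values were seen. The alternatives were a replicate block, an intensity trend with a robust fit, array weights, filters on dim and on _x_at, _s_at and _a_at probe sets, 1 probe set per gene, 2 rescalings, leaving out each array, and a threshold of 0.01.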

Additional observations from a re-analysis of the deposited data

How the results depend on the processing

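The count of 1 member probe set called higher was 2 in a robust fit with an intensity trend, with array weights and without dim probe sets, and 0 without _x_at, _s_at and _a_at probe sets (which removes both brighter RGS16 probe sets), with the replicate block and at an adjusted p under 0.01. It was 0 whichever array was left out, where 2 to 3 member probe sets were higher at an unadjusted limma p under 0.05. At that threshold 1 member probe set, that of RGS19, was lower without CA replicate 2, in the trend and robust fit, without dim probe sets and with quantile normalisation again. The count called higher was 1 with 1 probe set per gene and under both rescalings. No setting called a member lower. The log2 change of RGS16 at 209324_s_at lay between 0.59 and 0.64 in all 14 alternatives that could give it. Several of these leave it at 0.61 by construction. They are the replicate block, the trend and robust fit, the filter on dim probe sets, 1 probe set per gene and the threshold of 0.01. Only array weights, the 2 rescalings and leaving out an array could move it.

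Over all probe sets, 120 calls became 740 with the trend and robust fit, 398 without dim probe sets, 196 with array weights, 47 without _x_at, _s_at and _a_at probe sets, 5 at an adjusted p under 0.01, 1 with the replicate block and 0 to 6 when 1 array was left out. The 6 pathway genes called higher became 18, 11 and 10 with the trend and robust fit, without dim probe sets and with 1 probe set per gene, 1 at an adjusted p under 0.01, 0 with the replicate block and 0 to 1 when 1 array was left out.

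The labels give both groups replicate numbers 1 to 3 and state no pairing. Deviations of same-numbered arrays correlated at 0.08, 0.19 and 0.26. Those of differently numbered arrays correlated at -0.014, -0.054, 0.083, -0.23, -0.15 and -0.17. Each DMSO array thus correlated highest with the same-numbered CA array. Seen from the CA arrays this held for replicates 2 and 3. CA replicate 1 correlated at 0.083 with DMSO replicate 2 and at 0.081 with DMSO replicate 1. The main fit had no block because no pairing is stated, and these few correlations cannot settle whether the numbers pair the arrays. With the replicate block, which has fewer residual degrees of freedom, the RGS16 log2 change was 0.61 (adjusted p = 0.116); 3 member probe sets were then higher and 0 lower at an unadjusted limma p under 0.05.

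Signs turned only for member probe sets that were not called. RGS1 202988_s_at gave 0.010 with array weights, 0.0093 with median centring and 0.0035 with quantile normalisation; RGS1 202989_at gave -0.022 and RGS2 -0.015 with array weights, RGS2 -0.019 with quantile normalisation and RGS10 204319_s_at 0.0011 with median centring. Leaving out 1 array gave -0.083 to 0.077 and -0.049 to 0.062 for these RGS1 probe sets, -0.029 to 0.056 for RGS2, -0.028 to 0.14 for RGS3 220300_at, -0.0062 to 0.070 for RGS10 204316_at, -0.15 to 0.14 and -0.046 to 0.16 for RGS14 204280_at and 211021_s_at, and -0.11 to 0.014 for RGS18. For changes of the count of calls, the cause was not tested. Signal over background cannot be read from these values, which limits the probe sets below the array medians.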
